A study of Mus musculus with 3 samples.

Results

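CXCL1, CXCL2, CXCL3 and CXCL5 are chemokines that bind the receptor CXCR2, and their genes were followed with Cxcr2 through single-cell RNA-Seq of recipient leukocytes in mouse lung transplants. The 5 genes were taken by symbol from the 32285 genes of each library, and their unique molecular identifiers (UMIs) were summed over 7 lineages named from marker genes other than themselves. The rule itself used no measured level of the 5 genes, but they were chosen with earlier results of these data known. Clusters were named by the median level of preset marker genes relative to other cells. Neutrophils, T cells and so on below mean cells that resemble them by these markers.

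There were 3 libraries, 1 for each condition, and each pooled the cells of 2 mice, with C57BL/6J as the labelled strain. The naive library came from left lungs that were not transplanted. The other libraries came from left lungs of CD45.2 donors placed into congenic CD45.1 recipients and harvested 2 hours or 3 days after reperfusion, after cold ischemia at 4°C for 60 minutes and warm ischemia at 28°C for 45 minutes. The sort took CD45.1 cells, that is, cells of the recipient and not donor leukocytes. It is described for all libraries, although the naive lungs had no recipient. The naive library held 2921 cells and 28538529 UMIs, the 2-hour library 10328 cells and 10749100 UMIs, and the 3-day library 9016 cells and 70750470 UMIs. Pairs of libraries shared 1 to 23 barcodes. With 1 library per condition no test was possible, and condition, mice and cell preparation cannot be told apart. All intervals below are 95% intervals for counting error only, and the limit for 0 UMIs is the level of 3 counts.

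The receptor is coupled to Gi proteins. On neutrophils it drives adhesion, directed migration and degranulation, and neutrophil entry into an injured lung depends on it in many models. The ligands carry a Glu-Leu-Arg motif before the first cysteines, which sets them apart from CXC chemokines that attract lymphocytes. Stromal cells, macrophages and neutrophils make them quickly when NF-κB is activated, and their short-lived transcripts are removed again by RNA-binding proteins such as tristetraprolin. CXCR2 itself is lost from the neutrophil surface after ligand is bound, a step that transcript counts do not show.

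The 4 ligand genes lie within 147 kb on chromosome 5 of mm10, all on the plus strand in the GENCODE annotation. Cxcl5 (ENSMUSG00000029371) spans chr5:90759360-90761624, Cxcl3 (ENSMUSG00000029379) chr5:90786103-90789600, Cxcl1 (ENSMUSG00000029380) chr5:90891241-90893115 and Cxcl2 (ENSMUSG00000058427) chr5:90903871-90905938. Cxcr2 (ENSMUSG00000026180) is on the plus strand of chromosome 1 at chr1:74153989-74161246. The RefSeq promoter table for GRCm38.p6 held 4 of the 5 genes, all but Cxcl5, with 250 bases before each start. In these windows both strands were searched for GGGAATTTC, a form of the NF-κB motif, for ATAAAA as found in TATA boxes, and for the AP-1 motif TGANTCA. The letters of the first motif were chosen after the ligand promoters had been seen. The stretches that hold the first motifs in the ligand promoters are shown because Cxcl2 and Cxcl3 were high together in neutrophils at 2 hours and Cxcl1 shares their motifs. Each is on the plus strand, 5′ to 3′, and capitals mark GGGAATTTC and then ATAAAA.
Cxcl1, chr5:90891154-90891222: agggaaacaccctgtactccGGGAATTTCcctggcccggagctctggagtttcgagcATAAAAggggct
Cxcl2, chr5:90903782-90903853: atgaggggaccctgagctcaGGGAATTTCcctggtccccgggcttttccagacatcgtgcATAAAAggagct
Cxcl3, chr5:90786008-90786083: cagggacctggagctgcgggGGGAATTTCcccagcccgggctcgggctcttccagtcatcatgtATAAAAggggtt

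GGGAATTTC began 71 bases before the start of Cxcl1, 97 before that of Cxcl2 and 73 before that of Cxcl3, and ATAAAA followed it 37, 40 and 44 bases on. Of all 32851 promoters, 0.234% held GGGAATTTC and 17% held ATAAAA. Of the 5 promoters in the table with GGGAATTTC and then ATAAAA within 50 bases on the plus strand of the gene, 3 were those of Cxcl1, Cxcl2 and Cxcl3. The AP-1 motif, found in 6.75% of promoters, was in none of the 4, and none of the 3 motifs was in the Cxcr2 window. These matches describe letters in a window and not binding.

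Neutrophils were the main site of the receptor, of Cxcl2 in the naive and 2-hour libraries and of Cxcl3 at 2 hours. Neutrophil-like cells numbered 388 (naive), 3949 (2 hours) and 2155 (3 days). Cxcl2, which encodes the ligand also known as MIP-2, stood at 2215 counts per 1000000 UMIs (CPM, interval 2154 to 2278) in naive neutrophils. It stood at 18814 CPM (18669 to 18960.0) at 2 hours and at 2742 CPM (2710.0 to 2774) at 3 days. The 2-hour level was thus 8.49-fold the naive level (8.25 to 8.74) and 6.86-fold the 3-day level (6.77 to 6.96), whereas the 3-day level was 1.24-fold the naive level (1.2 to 1.28).

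Cxcl3 was at 65.4 CPM (55.3 to 76.9) in naive neutrophils, at 2112 CPM (2063 to 2161) at 2 hours and at 60.9 CPM (56.2 to 65.8) at 3 days. Its 2-hour level was 32.3-fold the naive level (27.4 to 38.3). The naive and 3-day intervals overlapped, with a ratio of 0.930 (0.776 to 1.12). Its log2 ratio between 3 days and naive was -0.10, but 1.0 with no cell filter, 0.96 when cells were called one by one and 1.11 when unnamed clusters 15 and 23 were counted as neutrophils. Cxcl1, the ligand also known as KC, had few UMIs in neutrophils, 9 (naive), 61 (2 hours) and 192 (3 days), which are 4.01, 17.9 and 18.4 CPM.

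Cxcr2 was at 589 CPM (558 to 621) in naive neutrophils, at 1349 CPM (1311 to 1389) at 2 hours and at 1205 CPM (1184 to 1226) at 3 days. Both transplant levels were above the naive level, by 2.29-fold (2.16 to 2.44) at 2 hours and 2.05-fold (1.93 to 2.17) at 3 days, and they lay within 1.12-fold of each other (1.08 to 1.16). On day 3, then, the receptor was nearer to its 2-hour level and both ligands were nearer to their naive levels.

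**Figure D1:**
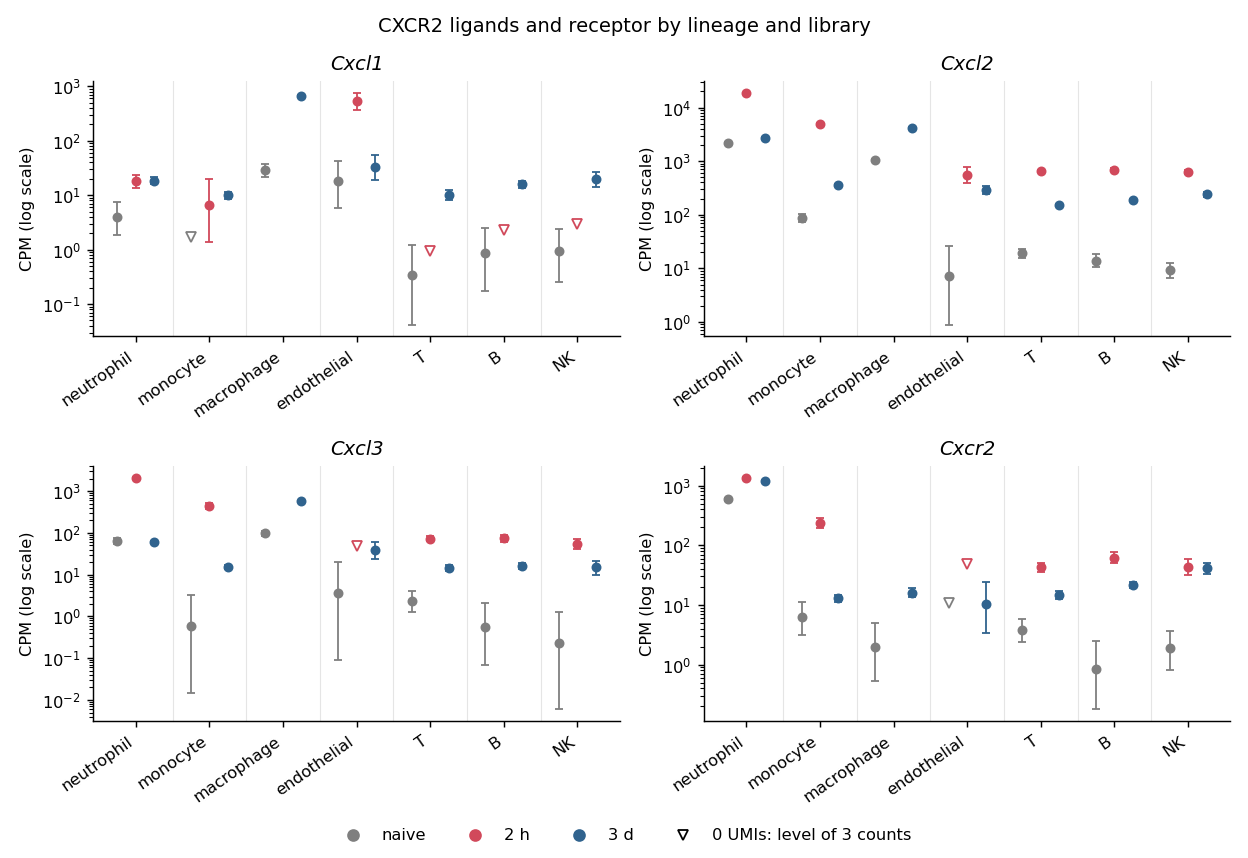
CPM of Cxcl1, Cxcl2, Cxcl3 and Cxcr2 (log scale) by lineage, with 1 point per library and bars for the exact 95% Poisson interval. Open triangles mark 0 UMIs and stand at the level of 3 counts, and macrophages at 2 hours (6 cells) are left out. Neutrophils at 2 hours are highest for Cxcl2 and Cxcl3, and macrophages at 3 days and endothelial-like cells at 2 hours are highest for Cxcl1. The 2-hour endothelial-like value rests on 33 UMIs in 4.88% of 41 cells.

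Depth differed between libraries, and kept cells had a median of 7298.50 (naive), 878 (2 hours) and 5716.50 (3 days) UMIs. Cells were therefore thinned to 500 UMIs before shares of cells were compared, which left out 324 of the 2-hour neutrophils and none of the others. A Cxcl2 UMI was then found in 37.6% of naive neutrophils (32.8% to 42.7%), 89.2% at 2 hours (88.2% to 90.2%) and 47.5% at 3 days (45.3% to 49.6%). Unthinned shares were 68.3%, 91.3% and 83.1%. In T cells, which should lack the gene, the thinned shares were 1.04%, 6.80% and 4.28%. Median depths were 5574.50, 744 and 4464 UMIs in neutrophils and 9844, 1131 and 8372 UMIs in T cells.

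For Cxcr2 the thinned shares of neutrophils were 27.6% (23.2% to 32.3%), 46.1% (44.5% to 47.8%) and 43.8% (41.7% to 45.9%) in the naive, 2-hour and 3-day libraries. Unthinned, they were 85.8%, 59.3% and 94.0%, lowest in the library of lowest depth. T cells had 0, 1.32% and 0.381%. Cxcl3 was found in 2.58%, 33.8% and 2.97% of thinned neutrophils, a difference in the same direction as its level.

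The comparisons with the naive library carry a further limit. Genes with at most 10 kb of introns held 45.0% of naive neutrophil UMIs, against 62.6% at 2 hours and 61.1% at 3 days. Headers name Cell Ranger 7.1.0 for the naive files and 6.0.0 for the others, and the counting of intronic reads is not stated in them. All 5 genes have under 10 kb of introns. Scaled to genes with at most 10 kb of introns, every log2 ratio to naive in neutrophils was lower by 0.48 at 2 hours and by 0.44 at 3 days. The log2 ratio of Cxcl2 at 2 hours went from 3.09 to 2.61 and that of Cxcr2 from 1.2 to 0.72. At 3 days Cxcl2 went from 0.31 to -0.13, which turned its direction, and Cxcr2 from 1.03 to 0.59. The comparison of 2 hours with 3 days shifted by 0.04 only in neutrophils, and by -0.17 in the nonclassical monocyte clusters.

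Among genes with at least 50 UMIs in neutrophils of both libraries together, a gene was counted as higher or lower where CPM plus 10 differed by at least 2-fold. Between 2 hours and naive, 5.25% of 5660 genes were higher and 16.3% lower, and 3 of the 4 members tested were higher (Cxcl2, Cxcl3 and Cxcr2) with none lower. Between 3 days and naive, 2.41% of 7549 genes were higher and 9.21% lower, and 2 of 4 members were higher (Cxcl1 and Cxcr2). Cxcl1 was counted there on 192 and 9 UMIs, with a log2 ratio of CPM plus 10 of 1.02. Its 3-day level of 18.4 CPM in neutrophils did not exceed that of NK cells, 19.8 CPM. Between 2 hours and 3 days, 3.21% of 7597 genes were higher at 2 hours and 5.30% lower, and 2 of 4 members were higher (Cxcl2 and Cxcl3). Cxcl5 did not reach 50 UMIs. The median log2 ratio of CPM plus 10 over the members tested was 2.13, 0.66 and 1.47 in the same order, beside -0.17, 0.10 and -0.16 over all genes tested. Scaled to genes with few introns, 3, 1 and 2 members were higher in the same order, beside 3.32%, 1.39% and 3.65% of all genes tested. Higher genes then made up 9.52% of the calls between 2 hours and naive instead of 24.4%. Between 3 days and naive they made up 7.41% instead of 20.8%.

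The source of the ligand UMIs differed between days. At 2 hours neutrophil-like cells, 38.4% of kept cells, held 76.2% of Cxcl2 UMIs (75.9% to 76.5%) and 73.8% of Cxcl3 UMIs (72.9% to 74.7%). At 3 days they were 25.9% of cells and held 26.5% of Cxcl2 and 8.34% of Cxcl3 UMIs, and 255 cells of unnamed cluster 23 held another 24.3% of Cxcl2 UMIs. Macrophage-like cells, 9.67% of kept cells at 3 days, then held 36.4% of Cxcl2 (36.1% to 36.7%), 69.3% of Cxcl3 (68.2% to 70.3%) and 86.3% of Cxcl1 UMIs (85.5% to 87.1%). With clusters 15 and 23 counted as neutrophils, these held 51.0% of Cxcl2 UMIs at 3 days, above macrophages, and 21.4% of Cxcl3 UMIs, below them. In the naive library macrophages were 4.46% of cells and held 27% of Cxcl2, 52.9% of Cxcl3 and 71.1% of the 83 Cxcl1 UMIs. Shares of cells reflect the sort and capture as well as the lung. Cxcr2 kept its source, with 95.5%, 82.6% and 90% of its UMIs in neutrophil-like cells (naive, 2 hours and 3 days).

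**Figure D2:**
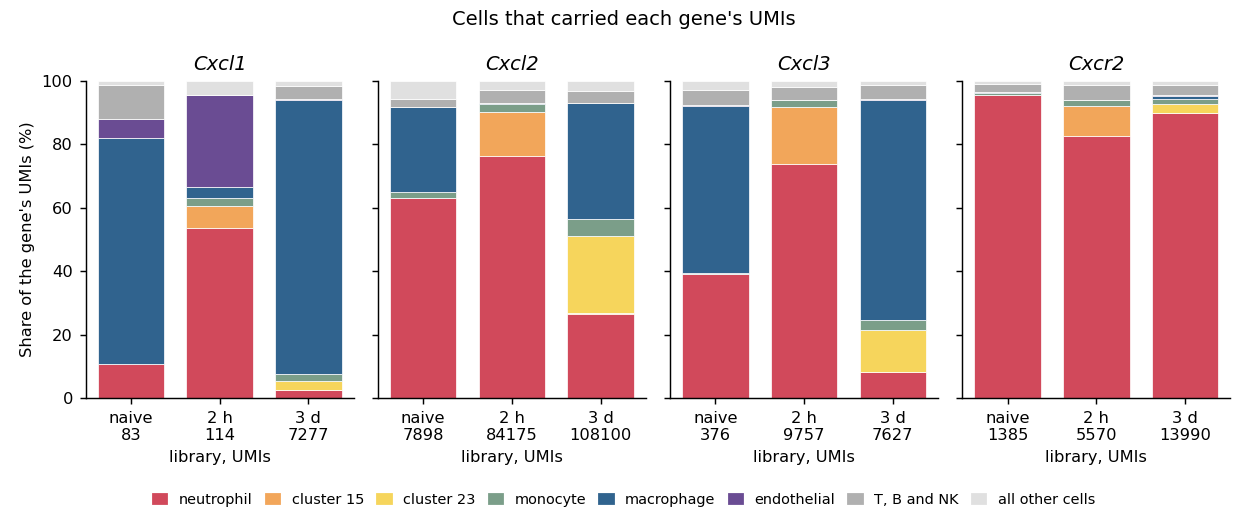
Share of each gene's UMIs (%) by the cells that carried them, in the naive, 2-hour and 3-day libraries, with the gene's UMI total under each bar. Neutrophils hold 76.2% of Cxcl2 at 2 hours and 26.5% at 3 days, where macrophages (36.4%) and the unnamed cluster 23 (24.3%) hold most of the rest.

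Clusters 15, 16 and 23 fell short of the naming rule. The best match was neutrophil for clusters 15 and 23, which were left out of the neutrophils. For cluster 16 it was nonclassical monocyte. The neutrophil markers had a median log2 ratio of 1.17 in cluster 15, with 7 above 1, and of 0.37 in cluster 23, with 4 above 1. Cluster 15 thus passed the limits on its markers. It stayed unnamed because its 10 top genes held Spp1, a marker of Arg1 macrophages, and no neutrophil marker. Cxcl2 and Cxcl3 were also among these 10 genes. S100a8 and S100a9, which encode the calprotectin subunits of neutrophils, were at 12603 and 21172 CPM in cluster 15. In cluster 23 they were at 14438 and 17072 CPM. Retnlg (113 CPM) and Csf3r (1221 CPM) were lower in cluster 23 than in cluster 1, the 3-day neutrophils (7763 and 2591 CPM). Mmp9 was higher, at 1627 against 1301 CPM. Cluster 15 held 421 cells at 2 hours (4.09% of kept cells) and was led by Ccl4, Ccl3, Spp1, Cxcl3 and Il1a. It held 14% of Cxcl2 and 18.1% of Cxcl3 UMIs of its library. Cluster 23 held 255 cells at 3 days (3.06% of kept cells) and was led by Tnf, Ccl3, Ccrl2, Il1f9 and Icam1. It held 24.3% of Cxcl2 and 13% of Cxcl3 UMIs of its library. The members were left out of the genes used for clustering, but genes that vary with them were not, so the values by cluster are a description.

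At 2 hours the neutrophils fell into cluster 0, with 2908 cells, and cluster 5, with 1040 cells, in which the granule protein genes Ngp and Camp were high. Cxcl2 stood at 20629.9 CPM in cluster 0, 14255 CPM in cluster 5 and 28833 CPM in cluster 15. Cxcl3 stood at 2427, 1321 and 4338 CPM in the same clusters. The order was thus cluster 5, cluster 0, cluster 15 for both ligands, with cluster 15 over cluster 5 by 2.02-fold (1.97 to 2.07) for Cxcl2 and 3.28-fold (3.06 to 3.53) for Cxcl3. Cxcr2 had another order, with 1591 CPM in cluster 5, 1254 CPM in cluster 0 and 1292 CPM in cluster 15, and clusters 15 and 0 did not differ beyond counting error (1.03-fold, 0.938 to 1.13). S100a9 was at 35053, 19261 and 21172 CPM in clusters 5, 0 and 15. Scgb1a1, a club cell gene, was at 862 CPM in cluster 0 and at 23.7 CPM in cluster 5, and its part in the result was not tested.

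At 3 days nearly all named neutrophils were in cluster 1 (2147 cells). Cxcl2 was at 2722 CPM in cluster 1 and at 25038 CPM in cluster 23, a 9.20-fold difference (9.05 to 9.35). The other ligands differed in the same direction, Cxcl3 by 15.6-fold (14.1 to 17.2) and Cxcl1 by 10.5-fold (8.58 to 12.9). Cxcr2 differed the other way, with 1204 CPM in cluster 1 and 370.3 CPM in cluster 23, or 0.308-fold (0.277 to 0.340). Cluster 23 also had more Siglecf, a sialic acid-binding receptor of eosinophils and alveolar macrophages also found on some neutrophils, at 276 CPM against 18.2 CPM. Its S100a9 level was 17072 CPM against 82646 CPM, and the macrophage gene C1qa was at 18.1 CPM against 15.1 CPM. So on day 3 the Cxcl2 level per UMI in these 255 cells was near that of the 2-hour clusters, at 25038 CPM against 14255 to 28833 CPM, with less receptor. Counting clusters 15 and 23 as neutrophils, a choice made after seeing the data, brought the log2 ratio of Cxcl2 between 2 hours and 3 days from 2.78 to 2.05 and that between 3 days and naive from 0.31 to 1.11.

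**Figure D3:**
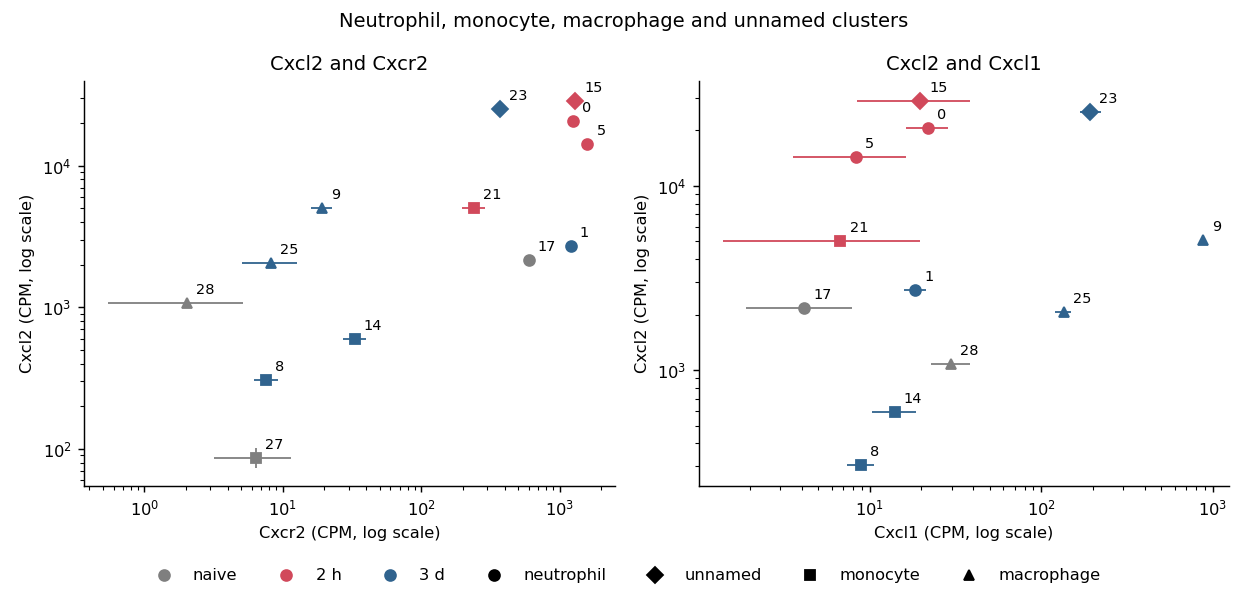
Cxcl2 CPM against Cxcr2 CPM (left) and against Cxcl1 CPM (right) in 13 clusters, both axes on a log scale, with bars for the exact 95% Poisson interval. Colors give the library and symbols the lineage, and cluster 27, which had 0 Cxcl1 UMIs, is missing on the right. Clusters 0, 5, 15 and 23 are at 14255 CPM of Cxcl2 or above, and cluster 23 is below them in Cxcr2, while cluster 9 is highest in Cxcl1.

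Ligand and receptor UMIs were next counted in the same cell at 500 UMIs per cell. Both were found in 8.20% of naive cluster 17 cells (5.64% to 11.4%), in 39.4% of cluster 0 (37.5% to 41.3%), 44.7% of cluster 5 (41.6% to 47.8%) and 42.2% of cluster 15 (37.4% to 47.2%) at 2 hours. At 3 days both were found in 20.2% of cluster 1 (18.5% to 22.0%) and 13.7% of cluster 23 (9.75% to 18.6%). These shares lay at the product of the shares with either gene, which was 10.4%, 39.3%, 45.8%, 42.6%, 20.7% and 13.7%. Cells were also ordered by Cxcl2 within each cluster. Of the 871 cells of cluster 0 with least Cxcl2, 45.1% had a Cxcr2 UMI, and of the 871 with most, 41.1%. In cluster 5 the shares were 58.6% and 51.2% of 336 cells, and in cluster 17 they were 35.7% and 23.8% of 126. The group with least Cxcl2 had the higher share in all 6 clusters, with overlapping intervals in each. In clusters 17 and 1, only 37.6% and 47.4% of cells had a Cxcl2 UMI. There the group with least Cxcl2 was taken by cell order from a larger set with 0 Cxcl2 UMIs, so its share depended on that order.

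**Figure D4:**
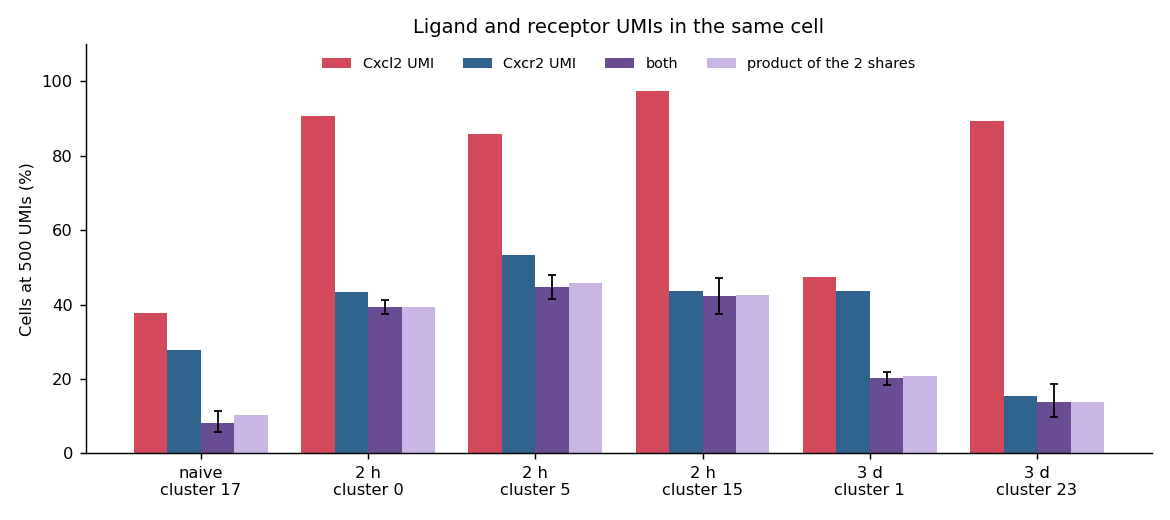
Share of cells (%) with a Cxcl2 UMI, a Cxcr2 UMI or both in neutrophil clusters and in unnamed clusters 15 and 23, each cell thinned to 500 UMIs, beside the product of the first shares. Error bars on the share with both are exact 95% binomial intervals. The share with both is largest in cluster 5 (44.7%) and lies at the product in each cluster.

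Monocyte-like cells had far more Cxcl2 at 2 hours than in either of the other libraries, with 4957 CPM (4753 to 5168) against 86.5 CPM (73.2 to 102) in naive lungs and 366 CPM (356 to 375) on day 3. Their makeup differed, since naive monocytes (cluster 27, 136 cells) had classical and nonclassical markers, nearly all 2-hour monocytes were nonclassical (cluster 21, 303 cells), and 3-day monocytes were classical (cluster 8, 772 cells) or nonclassical (cluster 14, 436 cells). Between the nonclassical clusters, Cxcl2 was at 4993 CPM at 2 hours and 594 CPM at 3 days, or 8.41-fold (7.91 to 8.93). Cxcl3 was at 445 and 26.2 CPM, or 17-fold (13.2 to 22.0), and Cxcr2 at 241 and 33.1 CPM, or 7.28-fold (5.54 to 9.54). Of 6855 genes tested between these clusters, 4.23% were higher and 11.5% lower at 2 hours by the 2-fold rule, and 3 of 4 members were higher. Several neutrophil genes were also higher in the 2-hour cluster, S100a9 at 4087 against 1869.9 CPM, S100a8 at 2579 against 1389 CPM and Retnlg at 1201 against 80.7 CPM, while Csf3r was at 220.3 and 177 CPM with a ratio of 1.25 (0.997 to 1.54). Mmp9, a protease gene of neutrophils, was lower, at 36.0 against 61.0 CPM with a ratio of 0.590 (0.331 to 0.980). Relative to neutrophils of their library, 2-hour monocytes had 26.3% of the Cxcl2 level, 17.7% of the Cxcr2 level and 18.0% of the S100a8 level. The part of neutrophil RNA in these monocyte values was not tested. Unnamed cluster 16, with nonclassical monocyte as its best match, was left out of these values. Its Cxcl2 level was 1765 CPM at 2 hours (299 cells) and 1361 CPM at 3 days (83 cells).

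At 3 days classical and nonclassical monocytes differed by less. Cxcl2 was at 305 CPM in cluster 8 and 594 CPM in cluster 14, or 1.95-fold (1.85 to 2.06), and Cxcr2 at 7.59 and 33.1 CPM, or 4.35-fold (3.30 to 5.75), beside a 4.27-fold difference (4.12 to 4.42) in S100a9. Thinned to 500 UMIs, 0.247% of 3-day monocytes had a Cxcr2 UMI, no more than the 0.381% of T cells.

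In the naive and 3-day libraries macrophages held most Cxcl1 UMIs. At 3 days Cxcl1 was at 675 CPM (659 to 692) in 805 macrophage-like cells, against 28.9 CPM (22.0 to 37.3) in 108 naive ones, a 23.4-fold difference (18.1 to 30.7). Cxcl2 was at 4234 and 1045 CPM, or 4.05-fold (3.88 to 4.24), and Cxcl3 at 568 and 97.5 CPM, or 5.83-fold (5.06 to 6.75). The 2 libraries held different macrophages, since the naive cells were alveolar (cluster 28, 102 cells) and the 3-day cells expressed Arg1, encoding arginase 1 (cluster 9, 647 cells), or the complement genes of the C1q family (cluster 25, 158 cells). Only 6 macrophage-like cells were found at 2 hours, too few for a level. In the 3-day macrophages, thinned shares of cells were 22.2% for Cxcl1 and 67.3% for Cxcl2, beside 0 and 4.28% of T cells.

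Within the 3-day macrophages the ligands were concentrated in the Arg1 cluster. Cxcl1 was at 879.5 CPM in cluster 9 and 135 CPM in cluster 25, or 6.52-fold (5.85 to 7.29), Cxcl3 at 758 and 66.2 CPM, or 11.4-fold (9.81 to 13.4), and Cxcl2 at 5057 and 2056 CPM, or 2.46-fold (2.39 to 2.53). Against the classical monocytes of the same library, cluster 9 had 99.0-fold the Cxcl1 level (82.4 to 119.9), 61.6-fold the Cxcl3 level (52.7 to 72.5) and 16.6-fold the Cxcl2 level (16.1 to 17.2). Cxcr2 was at 19.1 CPM in cluster 9 and 8.23 CPM in cluster 25, beside 906 and 375 CPM of S100a9, and was found in 0.870% of thinned macrophages.

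Endothelial-like cells passed into the sort in small numbers, with 89, 41 and 141 cells in the naive, 2-hour and 3-day libraries, and were shallow, at medians of 1444, 1294 and 1282 UMIs. Cdh5, which encodes VE-cadherin, was at 919.7 to 1187 CPM in them. Sftpc, a surfactant gene of alveolar epithelium, was at 6927 to 23905 CPM and Ptprc, which encodes CD45, at 58.4 to 219 CPM. Cxcl1 stood at 18.2 CPM (5.93 to 42.6), 543 CPM (374 to 763) and 33.0 CPM (18.9 to 53.6). The 2-hour value rests on 33 UMIs in 4.88% of the 41 cells. It made up 28.9% of the 114 Cxcl1 UMIs of that library (20.8% to 38.2%), and neutrophils held 53.5% of them. Cxcl2 stood at 7.30, 559.8 and 293 CPM, and Cxcr2 had 0 UMIs in the naive and 2-hour endothelial-like cells, which allows up to 10.9 and 49.4 CPM at 3 counts.

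Lymphocytes showed Cxcl2, Cxcl3 and Cxcr2 at a few percent of the neutrophil level at 2 hours. Cxcl2 was at 656 CPM in T cells, 693 CPM in B cells and 634 CPM in NK cells at 2 hours, and the 3 intervals overlapped. These were 3.48%, 3.68% and 3.37% of the neutrophil level. In T cells the share was 3.44% for Cxcl3, 3.16% for Cxcr2, 3.68% for S100a8, 3.52% for S100a9, 3.63% for Csf3r and 3.49% for Il1b, and 4.98% (3.69% to 6.57%) for Mmp9. In B cells it was higher for S100a8 (4.63%), S100a9 (4.86%, 4.61% to 5.11%) and Il1b (4.97%, 4.6% to 5.35%) than for Cxcl2 (3.44% to 3.93%). In NK cells it ranged from 2.54% for Cxcl3 to 5.29% for Csf3r. The UMIs were not spread evenly. Of 2-hour T cells, 4.26% had at least 5 Cxcl2 UMIs, and these held 90.4% of the T cell Cxcl2 UMIs. Scrublet called 87.9% of them doublets and 2.24% of the other T cells. Of 2-hour B cells, 3.49% had at least 5 Cxcl2 UMIs and held 86.0% of the B cell Cxcl2 UMIs. Scrublet called 80.0% of these B cells doublets. Without called doublets, Cxcl2 at 2 hours was at 171 CPM in B cells and 125 CPM in T cells. The log2 ratio of Cxcl2 between 2 hours and 3 days was then 0.32 instead of 1.86 in B cells. In NK cells it was -0.38 instead of 1.41.

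At 3 days the shares differed between genes. T cells had 5.52% of the neutrophil level of Cxcl2 and 23.5% of that of Cxcl3, but 1.22% of that of Cxcr2 and 0.744% of that of S100a8. B and NK cells likewise had 26.4% and 24.4% for Cxcl3 and 1.08% and 2.5% for S100a8. Macrophages held most Cxcl3 UMIs in that library. In the naive library T cells had 0.867% for Cxcl2, 0.641% for Cxcr2 and 0.626% for S100a8. Cxcl1 had 0 UMIs in T, B and NK cells at 2 hours, which allows up to 0.956, 2.31 and 2.93 CPM at 3 counts. At 3 days it was at 10.1, 15.7 and 19.8 CPM in these lineages, so that the neutrophil level of 18.4 CPM did not exceed that of NK cells.

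**Figure D5:**
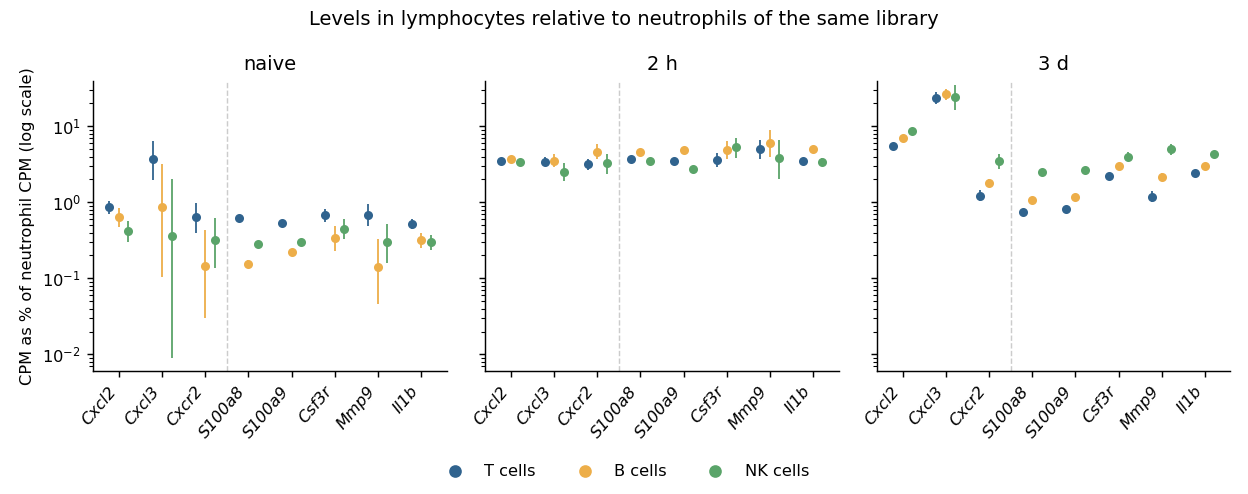
CPM in T, B and NK cells as a percentage of the neutrophil CPM of the same library (log scale), for Cxcl2, Cxcl3 and Cxcr2 left of the dashed line and for 5 neutrophil genes right of it, with 95% counting intervals. At 2 hours all genes lie between 2.54% and 6.02%, whereas at 3 days Cxcl3 (23.5% to 26.4%) lies above the others.

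Over the 7 lineages in each library, Cxcl2 was highest in 2-hour neutrophils, then 2-hour monocytes, 3-day macrophages, 3-day neutrophils, naive neutrophils and naive macrophages, and no neighbours in that order had overlapping intervals. Then came 2-hour B, T, NK and endothelial-like cells, which did not differ beyond counting error. Of cells outside these lineages, unnamed clusters 15 at 2 hours (28833 CPM) and 23 at 3 days (25038 CPM) lay above the 2-hour neutrophils. Basophil or mast-like cells at 2 hours, at 7674 CPM, lay above the monocytes. Platelet-like cells at 3 days were at 2529 CPM of Cxcl2, 264 CPM of Cxcl1 and 256 CPM of Cxcl3. Over all kept cells of that library these genes were at 1696, 114 and 119.7 CPM. The platelet-like cells were shallow, with a median of 632 UMIs, and Sftpc was among their leading genes. The part of RNA from other cells in their values was not tested. Among the 7 lineages, Cxcl3 was highest in 2-hour neutrophils, then 3-day macrophages at 568 CPM, 2-hour monocytes at 442 CPM and naive macrophages at 97.5 CPM. Clusters 15 at 2 hours and 23 at 3 days were at 4338 and 945 CPM of Cxcl3. For Cxcl1 3-day macrophages and 2-hour endothelial-like cells came first, with overlapping intervals, and 3-day endothelial-like cells and naive macrophages followed. The 2-hour endothelial-like value rests on 33 UMIs in 4.88% of 41 cells, so its interval does not cover variation between cells. Cxcr2 was highest in the 3 neutrophil values, followed by 2-hour monocytes.

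Cxcl5, which encodes a ligand made largely by lung epithelium, was almost undetected. It had 0 UMIs in the naive and 2-hour libraries and 6 UMIs at 3 days, 3 of them in macrophages. In neutrophils 0 UMIs allow up to 1.34 (naive), 0.880 (2 hours) and 0.287 CPM (3 days) at 3 counts. Epithelial cells were not a target of the sort, so the tissue level of Cxcl5 was not measured here. None of the 277 antibody features of the transplant libraries was named for CXCR2, and surface receptor could not be read.

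Genes whose pattern was most like that of each member were taken over 24 sums, each of 1 lineage in 1 library, by Pearson's r in log2 of CPM plus 10. The points share libraries. Cxcl1 was followed most closely by Ccl7 (r = 0.95), then Ccl24, Lif, Arg1 and C1qa (0.92 each), which all had their highest level in 3-day macrophages. Cxcl2 was followed by Lilr4b and Ccr1 (0.92) and by Nlrp3, C5ar1 and Clec4e (0.91). Cxcl3 was followed by Il1rn and Cxcl2 (0.89), Fth1 (0.86), and Skil and Sod2 (0.82). Cxcr2 was followed by Cstdc4 (0.97), Grina, Retnlg and Resf1 (0.94) and Gm39321 (0.93), all highest in neutrophils at 2 hours or 3 days.

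Other genes of the axis were counted in neutrophils from lists chosen by role. The remaining ligands with a Glu-Leu-Arg motif, Ppbp and Cxcl15, had at most 10 UMIs in neutrophils of any library and were not tested. Of the 7 CXC ligands without it, none to 3 reached 50 UMIs and none passed 2-fold. Of 7 receptors that share ligands or leukocyte attraction with CXCR2, 5 to 6 were tested. Cxcr1, the other receptor for some of these ligands, was at 7.12, 5.57 and 26.6 CPM in naive, 2-hour and 3-day neutrophils, and was the only one past 2-fold, higher at 3 days than naive (1.10 on the log2 scale of CPM plus 10) and than at 2 hours. Of all genes tested, 5.25% were higher and 16.3% lower at 2 hours than naive. At 3 days 2.41% were higher and 9.21% lower than naive, and between 2 hours and 3 days 3.21% were higher and 5.30% lower. Scaled to genes with few introns, 1 of the 5 receptors tested was lower at 2 hours than naive, beside 31.6% of all genes. Cxcr4, which holds neutrophils in the bone marrow and marks aged ones, was at 954, 1849 and 1015 CPM, with a log2 ratio of 0.95 (0.88 to 1.03) between 2 hours and naive. Fpr1, a formyl peptide receptor, was at 167, 317 and 155 CPM, and C5ar1, the receptor for C5a, at 1136, 1059 and 829 CPM.

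Of 18 signaling genes below the receptor, all tested, 1 was higher and 6 lower at 2 hours than in naive neutrophils, beside 5.25% and 16.3% of all genes. At 3 days 0 were higher and 2 lower than naive, beside 2.41% and 9.21%. Between 2 hours and 3 days 1 was higher and 5 lower, beside 3.21% and 5.30%. Arrb2, which encodes β-arrestin 2 that ends receptor signaling, was the gene that was higher, at 263 CPM at 2 hours against 73.4 CPM naive and 109 CPM at 3 days. Rgs2, a regulator of G protein signaling, was lower at 2 hours (167 CPM) than naive (345 CPM) and at 3 days (678 CPM). Fgr, a Src family kinase, was at 275 CPM at 2 hours, 484 CPM at 3 days and 1407 CPM naive, and Prex1, a Rac exchange factor, at 65.4, 177 and 164 CPM. Scaled to genes with few introns, 12 instead of 6 of these genes were lower at 2 hours than naive, and the share of all genes that were lower went from 16.3% to 31.6%.

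Among genes known to induce or restrain the ligands, 17 of 19 were tested. At 2 hours 5 were higher and 1 lower than naive, beside 5.25% and 16.3% of all genes, and 4 were higher and 0 lower than at 3 days, beside 3.21% and 5.30%. At 3 days 1 was higher and 2 lower than naive, beside 2.41% and 9.21%. Those higher than naive were Nfkbia, Tnfaip3, Zfp36, Egr1 and Il1rn, and those higher than at 3 days Il1a, Zfp36, Zc3h12a and Il1rn. Zfp36, which encodes tristetraprolin, was at 1969 CPM at 2 hours, 469.5 CPM naive and 793 CPM at 3 days. Il1rn, which encodes the IL-1 receptor antagonist, was at 2316, 723 and 569 CPM, and Zc3h12a, which encodes the RNase regnase-1, at 441 (2 hours) and 182 CPM (3 days). The NF-κB inhibitor genes Nfkbia and Tnfaip3 were at 2015 and 467 CPM at 2 hours and at 983 and 205 CPM naive. The inducer Il1b was at 10922 CPM at 2 hours, 6894 CPM naive and 8366 CPM at 3 days, under 2-fold in each comparison. Nfkb1 was the gene that was lower at 2 hours than naive, at 222 against 939.5 CPM, and at 3 days it was at 208 CPM. Scaled to genes with few introns, 3 instead of 5 genes were higher at 2 hours than naive, beside 3.32% instead of 5.25% of all genes.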

How the data were processed

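The deposited values were UMI counts per gene and droplet called as a cell, which the authors made with Cell Ranger (7.1.0 for naive, 6.0.0 for 2 hours and 3 days, per the file headers) against mm10, and which were not normalized. The methods name a 3′ kit and the labels a 5′ and a 3′ kit, so the chemistry is not settled. As in the study's methods, a cell needed over 200 genes and had to stay under 6000 genes, 25000 UMIs and 10% of UMIs from mitochondria. These were 2422 naive, 10283 2-hour and 8324 3-day cells. Seurat 5.3.0 with sctransform 0.4.2 clustered them (30 components, resolution 0.8) without the members among the clustering genes. A cluster was named where the median log2 ratio of a type's markers, and at least 3 of them, exceeded 1 and no other type led its 10 top genes. B cells exclude those in which Jchain took 1% of UMIs or more. Scrublet in scanpy 1.11.5, run per library, called 33, 413 and 274 kept cells doublets, which were removed only in an alternative.

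UMIs of a gene were summed per lineage and library and scaled to 1000000 UMIs of the same cells. Intervals were exact Poisson for CPM, exact conditional binomial for ratios and Clopper-Pearson for shares. The intervals of the ratios were tested on simulated counts with known ratios. No p-value was computed, since each condition had 1 library. Named genes were the members, the pathway lists and, for each member with at least 100 UMIs, the 5 genes of highest r. The members and lists were chosen with earlier results of these data known. The alternatives were no cell filter, a call of cells one by one, doublet removal, means of counts per 10000, thinning to 500 UMIs, CPM without ribosomal, mitochondrial and immunoglobulin genes or over genes with at most 10 kb of introns, subtraction of T cell CPM, clustering with the members, and resolution 1.2. Adding clusters 15 and 23 to neutrophils, leaving out cluster 0, and recounting genes under the intron scaling were added after seeing the data.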

Additional observations from a re-analysis of the deposited data

Results flagged for a closer look

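Cxcl2 was also found in cells outside the 7 lineages. In basophil or mast-like cells it stood at 7674 CPM at 2 hours (68 cells), above 2170.3 CPM in the naive library (20 cells) by 3.54-fold (3.10 to 4.04), and at 2289 CPM at 3 days (112 cells). Thinned to 500 UMIs, 52.9% of these cells had a Cxcl2 UMI at 2 hours and 25% in each of the other libraries, beside 6.80% of 2-hour T cells. In a cluster with markers of plasmacytoid and conventional dendritic cells it stood at 2203 CPM at 2 hours (216 cells), above 24.5 CPM in the naive library (24 cells), and at 239 CPM at 3 days (124 cells).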

How the results depend on the processing

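Of 72 values of the log2 ratios of Cxcl2 and Cxcr2 in neutrophils under alternatives, 38 stayed within the counting interval of the reported value, 33 moved beyond it and 1 changed sign. Of 334 such values for other members and lineages, 185 stayed, 140 moved and 9 changed sign from a reported value whose interval excluded 0. For Cxcl2 between 2 hours and naive (3.09), the values that moved were 2.98 with thinning, 2.61 over genes with few introns, 3.17 with clusters 15 and 23 and 2.71 without cluster 0. Between 3 days and naive (0.31) they were 0.72 with no cell filter, 0.75 by single cells, 0.36 without doublets, 0.37 as a mean over cells, 0.25 with thinning and at resolution 1.2, 0.24 after T cell subtraction, 1.11 with clusters 15 and 23, and -0.13, the change of sign, over genes with few introns. Between 2 hours and 3 days (2.78) they were 2.38, 2.37, 2.73, 2.70, 2.73 and 2.81 under the same alternatives from the cell filter to resolution 1.2, 2.75 without ribosomal, mitochondrial and immunoglobulin genes, 2.74 over genes with few introns, 2.81 after T cell subtraction, 2.05 with clusters 15 and 23 and 2.39 without cluster 0. For Cxcr2 between 2 hours and naive (1.2) they were 0.96 with thinning, 0.72 over genes with few introns and 1.43 without cluster 0. Between 3 days and naive (1.03) they were 0.78, 0.59 and, with clusters 15 and 23, 0.94. Between 2 hours and 3 days (0.16) they were 0.32 by single cells, 0.11 at resolution 1.2, 0.25 with clusters 15 and 23 and 0.40 without cluster 0. The causes were not tested.

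The other changes of sign from an interval that excluded 0 were between 2 hours and 3 days. They were -0.11 for Cxcl2 in B cells after T cell subtraction, -0.17 for Cxcr2 in T cells with no cell filter, -0.38 for Cxcl2 and -0.46 for Cxcl3 in NK cells without doublets, and, for Cxcl2 in endothelial-like cells, -1.87 with no cell filter, -2.11 by single cells, -0.03 as a mean over cells, -0.85 with the members in the clustering and -0.53 at resolution 1.2. Where the reported interval spanned 0, 9 of the stayed or moved values had the other sign. They were -0.01, -0.18, -0.05 and -4.42 for Cxcr2 in NK cells between 2 hours and 3 days (0.08) with no cell filter, as a mean over cells, over genes with few introns and after T cell subtraction, 1.11 after that subtraction and 0.14 at resolution 1.2 for Cxcl1 in neutrophils between the same libraries (-0.04), and the 3 values of Cxcl3 in neutrophils between 3 days and naive given above. Neutrophils numbered 331, 2772 and 2154 when called by single cells, against 388, 3949 and 2155. No paired analysis was possible because each condition had 1 library, and no replicate could be left out.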
